A study of Mus with 2 samples.

Results

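The perilipins (*Plin1*, *Plin2*, *Plin3*, *Plin4* and *Plin5*) and the CIDE genes (*Cidea*, *Cideb* and *Cidec*) were described in single nucleus RNA-sequencing (snRNA-seq) data of interscapular brown adipose tissue (iBAT). These 8 genes were taken by name, out of 32285 genes listed in the files, and none of them was used to find adipocyte nuclei. One library came from *Wtap* flox/flox mice, in which an exon of *Wtap* is flanked by loxP sites. The other library was labelled *Wtap*-BKO, below the BKO-labelled library, and came from *Wtap* flox/flox mice that also carried *Ucp1*-iCre, in which Cre is expressed from the *Ucp1* gene and therefore in brown adipocytes. *Wtap* encodes a subunit of the complex that writes the m6A mark on mRNA. All mice were C57BL/6 mice on a normal chow diet at the age of 8 weeks, and nuclei from frozen iBAT of 4 mice were pooled in each library. With 1 library per genotype there was no replicate, no test between genotypes was possible, and every interval below is a 95% interval that covers counting error only.

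Fat cells store triglycerides in lipid droplets, whose surface is coated by proteins. Perilipins are coat proteins that control the access of lipases to the droplet, and CIDE proteins sit where droplets touch and drive the transfer of lipid into the larger droplet. Brown adipocytes hold many small droplets and express *Cidea* and *Plin5* at high levels, whereas a white adipocyte holds 1 large droplet. Perilipin 2 and perilipin 3 are made in most cell types.

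In the mouse assembly GRCm38.p6 (RefSeq), which is the assembly that mm10 names, *Plin4* (chr17:56100587-56109948), *Plin5* (chr17:56111597-56117606) and *Plin3* (chr17:56278962-56290511) lie on the same chromosome. The gap is 1648 bases between *Plin4* and *Plin5* and 161355 bases between *Plin5* and *Plin3*. *Plin1* lies at chr7:79721164-79732904, *Plin2* at chr4:86626910-86670217, *Cidec* at chr6:113424634-113435760 and *Cideb* at chr14:55754052-55758424. UMIs were given per gene, so parts of a gene were not told apart, and whether intronic reads were counted was not stated. The span of *Plin4* overlaps *Hdgfl2*, which had 571 UMIs in the *Wtap* flox/flox and 624 in the BKO-labelled adipocyte-like nuclei, a log2 ratio of -0.0086 (-0.17 to 0.16). *Cideb* overlaps *Ltb4r2* (1 and 0 UMIs) and *Nop9*, with 125 and 177 UMIs. The log2 ratio of *Nop9* was 0.37 (0.03 to 0.71), above 0 like that of *Cideb* (15 and 26 UMIs). *Plin2* overlaps *Gm12551* and *Cidec* overlaps *Gm52871*. How reads in such overlaps were assigned was not stated.

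There were 9494 *Wtap* flox/flox nuclei with 10770604 unique molecular identifiers (UMIs) and 8772 BKO-labelled nuclei with 13945673 UMIs. The nuclei fell into 14 clusters, of which 5 were adipocyte-like (6751 and 4938 nuclei). The 12 adipocyte markers summed to 14709.9 and 15591 counts per 1000000 UMIs (CPM) in the adipocyte-like nuclei. In the other classes they summed to 3787 to 9244 CPM (*Wtap* flox/flox) and 3301 to 5861 CPM (BKO-labelled), so RNA of these genes was present in every class. Each of the 12 markers had UMIs in each class, except in the few B cell-like and Schwann-like nuclei. Mitochondrial transcripts made up 4.48% (*Wtap* flox/flox) and 11.8% (BKO-labelled) of adipocyte-like UMIs. *Wtap* had 50.4 CPM and 48.4 CPM in the adipocyte-like nuclei, a log2 ratio of -0.06 (-0.26 to 0.15). The kit counts transcripts from their 3′ ends, so these UMIs need not come from the deleted part and are no check of the label.

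In the adipocyte-like nuclei, *Plin2*, *Plin4* and *Cidec* were 2.0 to 3.68 times higher in the BKO-labelled library, and *Plin1* was 1.33 times higher. *Plin3* and *Plin5* were 1.71 and 2.13 times lower, and *Cidea* was 1.39 times lower. A gene was counted as higher or lower from a fold of 1.5, if it had at least 20 UMIs over both libraries. All 8 genes had that many, and 4 of 8 were higher, among 25.2% of all 14089 genes that met the same limits. The fourth was *Cideb*, at 15 and 26 UMIs with an interval that holds 0. Of the 8 genes, 2 were lower, among 12.2% of all genes, and 2 were neither. The median log2 ratio was 0.53 over the 8 genes and 0.07 over all genes tested.

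*Plin1*, the main perilipin of the adipocyte droplet and a platform for regulated lipolysis, was at 727 CPM (5522 UMIs, interval 708 to 746) in the *Wtap* flox/flox library. It was at 964 CPM (8050 UMIs, 943 to 985) in the BKO-labelled library, a log2 ratio of 0.41 (0.36 to 0.46). *Plin4*, a perilipin of adipocytes that coats small nascent droplets, was at 615 CPM (4677 UMIs, 598 to 633) and 1381 CPM (11535 UMIs, 1356 to 1406). Its log2 ratio was 1.17 (1.12 to 1.21). Both adipocyte perilipins were thus above the *Wtap* flox/flox level, and the ratio of *Plin4* was the larger. *Plin4* UMIs made up 45.9% (44.9 to 46.8) of the UMIs of *Plin1* and *Plin4* among *Wtap* flox/flox nuclei, against 58.9% (58.2 to 59.6) among BKO-labelled ones.

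*Plin2*, which coats droplets in cells of many types and is stable only when bound to lipid, had the highest ratio of the 8 genes. It was at 156 CPM (1182 UMIs, 147 to 165) and 573 CPM (4784 UMIs, 556 to 589), a log2 ratio of 1.88 (1.79 to 1.97). *Plin5*, which tethers droplets to mitochondria in oxidative tissues, had the lowest. It was at 222 CPM (1685 UMIs, 211 to 233) and 104 CPM (871 UMIs, 97.4 to 111), a log2 ratio of -1.09 (-1.21 to -0.97). *Plin4* and *Plin5*, neighbours on the chromosome, therefore had ratios of opposite sign. *Plin3*, a perilipin that moves between the cytosol and droplets, was at 71.5 CPM (543 UMIs, 65.6 to 77.7) and 41.9 CPM (350 UMIs, 37.6 to 46.5), a log2 ratio of -0.77 (-0.97 to -0.57).

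*Cidea*, the CIDE protein of brown adipocytes, was at 878 CPM (6670 UMIs, 857 to 899) and 629 CPM (5259 UMIs, 613 to 647). Its log2 ratio was -0.48 (-0.53 to -0.43), which misses the 1.5-fold limit. *Cidec*, a CIDE protein that helps to form the single large droplet of white adipocytes, was at 370.0 CPM (2812 UMIs, 356 to 384) and 741 CPM (6187 UMIs, 722 to 759). Its log2 ratio was 1.0 (0.94 to 1.07). *Cidea* and *Cidec* thus had ratios of opposite sign. *Cideb*, best known from hepatocytes and enterocytes, was near the limit of detection, with 1.97 CPM (1.10 to 3.26) and 3.11 CPM (2.03 to 4.56) and a log2 ratio of 0.66 (-0.31 to 1.68).

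**Figure D1:**
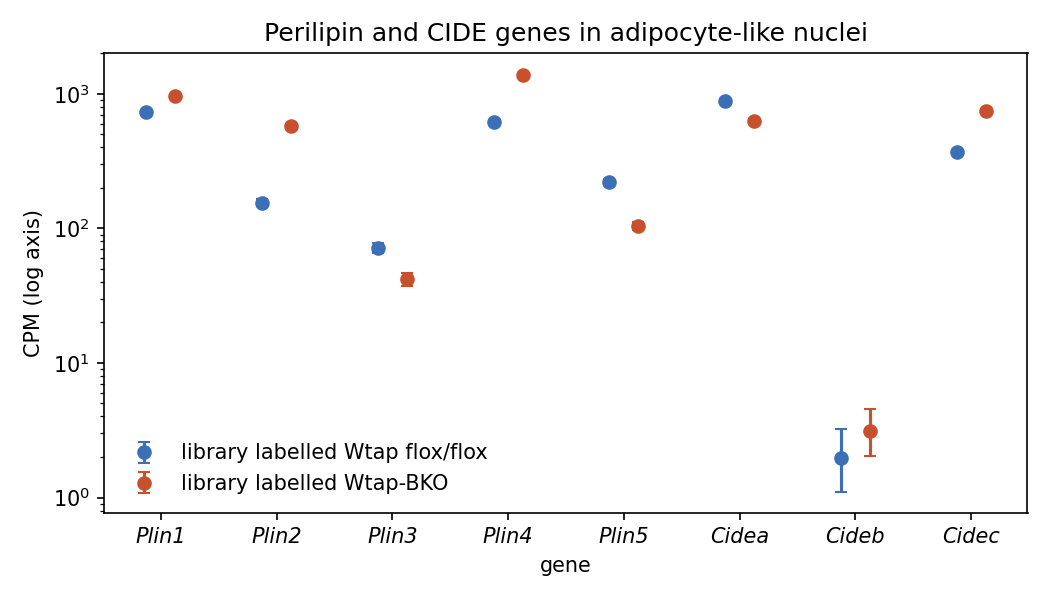
Level of each of the 8 genes in the adipocyte-like nuclei in CPM (log axis), with 1 point per library and its exact Poisson 95% interval. *Plin2* lies at 156 and 573 CPM and *Cidec* at 370.0 and 741 CPM, while *Plin5* lies at 222 and 104 CPM, and *Cideb* stays under 5 CPM in both.

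For the share of nuclei that held a UMI of a gene, nuclei were thinned to 1000 UMIs apiece, which left 3291 and 3845 adipocyte-like nuclei and left out 3460 and 1093 shallower ones. *Plin2* was found in 13.8% (12.7 to 15.1) of the *Wtap* flox/flox nuclei and in 41.2% (39.7 to 42.8) of the BKO-labelled nuclei, against 15.5% and 52.7% without thinning. *Plin5* was found in 19.1% (17.7 to 20.4) and 9.49% (8.58 to 10.5), against 20.7% and 15.1% without thinning. *Cidea* was found in 56.9% and 44.0% and *Cidec* in 28.7% and 45.2%, whereas without thinning *Cidea* was at 57.7% and 56.2%. The T cell-like nuclei, which should make no *Cidea* or *Cidec* of their own, gave thinned shares of 41.0% and 23.2% for *Cidea* and 19.7% and 18.4% for *Cidec*. Their *Plin2* shares were 18% (61 nuclei, 9.36 to 30.0) and 21.5%. T cells may make *Plin2* themselves, so these shares need not be background alone. *Plin2* in the *Wtap* flox/flox adipocyte-like nuclei was not above the T cell-like share, whereas in the other library it was.

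The 5 adipocyte-like clusters differed in their leading genes. Clusters 0 and 2 held most of the *Wtap* flox/flox adipocyte-like nuclei, and cluster 2 was led by *Lncbate10* and *Gmpr*. Cluster 1 was led by mitochondrially encoded genes (median 13.8% of the UMIs of a nucleus). Cluster 9 (182 and 467 nuclei) was led by *Slc7a10*, *Chst1*, *Cyp2e1* and *Retn*, and cluster 11 (152 and 349 nuclei) by the interferon-induced genes *Gbp10*, *Gbp6* and *Iigp1*. The directions between the libraries were shared: *Plin1*, *Plin2*, *Plin4* and *Cidec* had a log2 ratio above 0 and *Plin3*, *Plin5* and *Cidea* one below 0 in 5 of 5 clusters. The intervals held 0 for *Plin3* in clusters 1, 9 and 11 and for *Plin5* in cluster 9.

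The size of the ratio varied most for *Plin2* and *Plin4*. *Plin2* had nearly the same level in the 5 clusters of the *Wtap* flox/flox library, 146 to 189.8 CPM. In the BKO-labelled library it was at 382 CPM in cluster 9 and at 877 CPM in cluster 11. The ratio was thus 2.01-fold (log2 1.01, 0.57 to 1.48) in cluster 9 and 6.02-fold (log2 2.59, 2.02 to 3.22) in cluster 11. *Plin4* in cluster 11 was at 560.5 CPM (100 UMIs) and 2457 CPM (1611 UMIs), 4.38 times higher. In cluster 9 *Plin4* was high in both libraries, 1801 and 2438 CPM, and only 1.35 times higher in the BKO-labelled library.

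Cluster 9 was compared with the other adipocyte-like clusters together, within each library. *Plin4* was 3.13 times and *Cidec* 3.0 times the level of the other clusters in the *Wtap* flox/flox library, and 1.98 and 3.18 times in the BKO-labelled library. *Cidea* was 2.49 and 3.38 times lower, and *Plin5* 2.95 and 2.08 times lower, in the 2 libraries. *Plin1* was within 1.14 times of the other clusters in both. In the *Wtap* flox/flox library 2 of the 7 genes with enough UMIs were at least 1.5-fold higher and 2 lower in cluster 9, among 20.7% higher and 17.7% lower of all 11776 genes. In the other library 2 of 8 were higher and 5 lower, among 15.3% and 20.7% of all 12616 genes, and *Plin2* (1.57 times), *Plin3* (1.78 times) and *Cideb* (1 UMI) joined the lower ones. High *Plin4* was not particular to cluster 9 in that library: in cluster 11 it was at 2457 CPM, 1.91 times the level of the other clusters. There *Plin2* (1.60 times) was also higher, and *Cidea* (1.66 times), *Plin3* (1.57 times) and *Cideb* (1 UMI) were lower. *Cidec* was at 679 CPM in cluster 11 against 746 CPM in the other clusters together. That pool included cluster 9 at 1852 CPM, while clusters 0, 1 and 2 were at 676, 514 and 549 CPM. Cluster 11 thus had 2 of 8 higher and 3 lower, among 14.6% and 17.7% of all 12616 genes. In the *Wtap* flox/flox library it had 0 of 7 higher and 1 lower (*Plin3*, 7 UMIs), among 18.5% and 13% of all 11776 genes. These clusters were formed from other genes of the same nuclei, so the values are a description.

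**Figure D2:**
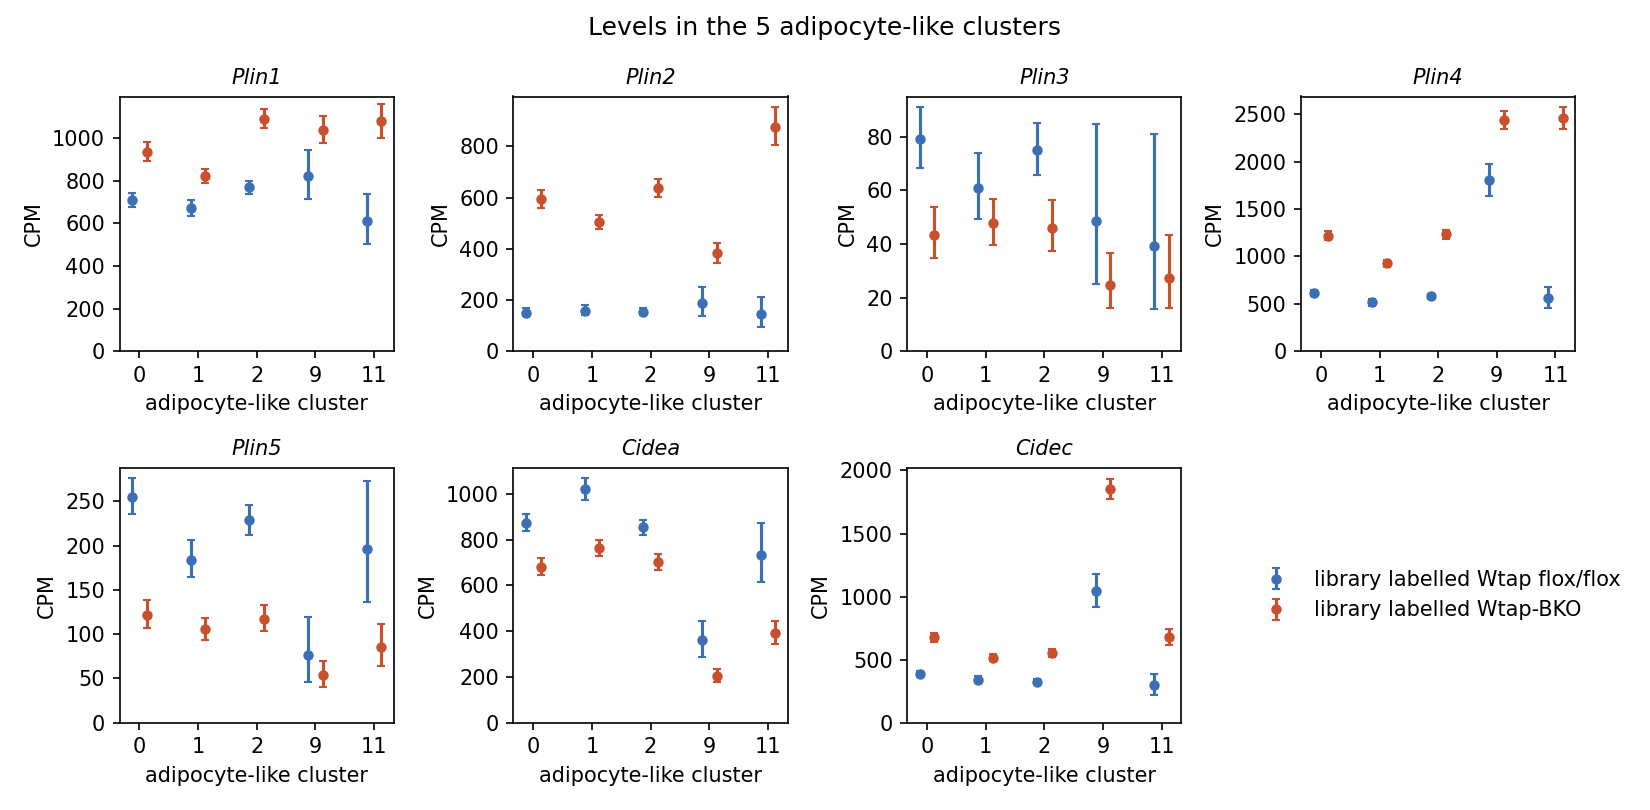
Level of 7 of the genes in each adipocyte-like cluster, in CPM on an axis that starts at 0, with 1 point per library and its exact Poisson 95% interval (*Cideb* had at most 13 UMIs in a cluster). Within the *Wtap* flox/flox library *Plin4* and *Cidec* are highest and *Cidea* lowest in cluster 9. Within the BKO-labelled library *Cidec* (1852 CPM) is also highest and *Cidea* (204 CPM) lowest in cluster 9. There *Plin4* is high in clusters 9 and 11 (2438 and 2457 CPM), and *Plin2* reaches 877 CPM in cluster 11.

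The balance between the CIDE genes was compared within each library, which does not depend on its depth. *Cidea* took 70.3% (69.4 to 71.3) of the summed UMIs of *Cidea* and *Cidec* in the *Wtap* flox/flox adipocyte-like nuclei and 45.9% (45 to 46.9) in the BKO-labelled ones. The share was lower in the latter in each cluster. It went from 69.4% to 50.2% in cluster 0, from 75.0% to 59.7% in cluster 1 and from 72.4% to 56.1% in cluster 2. Cluster 11 had a share close to these in the *Wtap* flox/flox library, 71.2% (64.1 to 77.6), but only 36.6% (33.0 to 40.3) in the other. Cluster 9 was lowest in both, with 25.6% (21.1 to 30.6) and 9.93% (8.69 to 11.3). This cluster held 182 of 6751 and 467 of 4938 adipocyte-like nuclei, and with each cluster weighted alike in the 2 libraries the shares were 69.1% and 50.1%. The lower share was not particular to adipocyte-like nuclei. It was 72.6% and 48.7% in macrophage-like, 73.4% and 54.1% in T cell-like and 77.2% and 46.9% in fibroblast-like nuclei. In pericyte-like nuclei it was 75.6% and 57.3%, in endothelial-like 80.3% and 64.2% and in unnamed nuclei 84.9% and 73.8%.

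**Figure D3:**
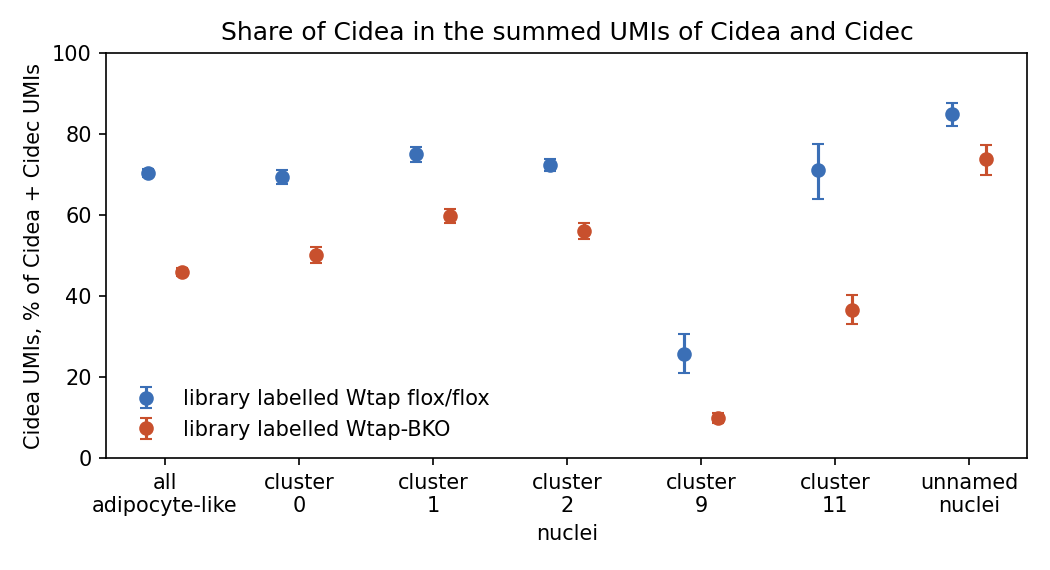
Share of *Cidea* in the UMIs of *Cidea* and *Cidec* in percent, with 1 point per library and its exact binomial 95% interval, for all adipocyte-like nuclei, for each adipocyte-like cluster and for the unnamed cluster. The share is lower in the BKO-labelled library in every column, by 45.9% against 70.3% over all adipocyte-like nuclei, and it is lowest in cluster 9.

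Since the libraries differed in mitochondrial RNA, the ratios were also taken within bins of the mitochondrial share of a nucleus. *Plin2*, *Plin4* and *Cidec* were higher in the BKO-labelled library in each bin. From under 5% to over 25%, the log2 ratio of *Plin2* was 2.01, 1.91, 1.69 and 1.27, that of *Plin4* was 1.42, 1.42, 1.47 and 1.14, and that of *Cidec* was 1.43, 1.02, 0.91 and 1.03. *Cidea* had -0.80, -0.63 and -0.65 in the lower bins but 0.02 (-0.34 to 0.40) over 25%, where the *Wtap* flox/flox library had 57 nuclei. *Cidea* thus passed the 1.5-fold limit in each bin up to 25%, although over all adipocyte-like nuclei (-0.48) it did not. *Plin3* had -0.86 under 5% and -0.98 from 5% to 10% but 0.02 (-0.58 to 0.66) from 10% to 25% and -0.14 (-1.93 to 2.27) over 25%. *Plin5* had -1.34, -1.0 and -0.58 in the lower bins and -0.30 (-1.17 to 0.69) over 25%. Under 5%, 3 of the 8 genes were at least 1.5-fold lower, among 11% of all 12130 genes.

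Outside the adipocyte-like nuclei, the level of each gene was set against the adipocyte-like level of the same library, beside the 12 adipocyte markers as a guide to the adipocyte RNA in a class. The guide is rough, since single markers exceeded the adipocyte-like level in some classes, at up to 183% in fibroblast-like and 199% in unnamed nuclei. In the macrophage-like nuclei *Plin1*, *Plin4* and *Cidec* were near the markers. In the BKO-labelled macrophage-like nuclei (1123, and 287 in the other library), *Plin1* was at 28.2%, *Plin4* at 27.4% and *Cidec* at 29.7% of the adipocyte-like level, while the markers were at 29.3% (28.6 to 29.9) in sum and at 23.1% to 48.1% one by one. In the *Wtap* flox/flox macrophage-like nuclei they were at 48.4%, 45.3% and 49.7%, with the markers at 45.2% (43.2 to 47.2) in sum and at 24.1% to 68.0% one by one. *Plin3* was nominally above the markers in both libraries, at 88.7% (53.7 to 138) and 64.8% (47.2 to 87.3), on 20 and 50 UMIs. *Cidec* was not near the summed markers in every class. In the *Wtap* flox/flox library it was at 63.3% (56.7 to 70.5) in the endothelial-like nuclei, with the markers at 35.2% in sum, and at 73.0% (59.3 to 89.1) in the unnamed nuclei, with the markers at 25.7% in sum. Single markers ran from 27.1% to 126% in these endothelial-like and from 5.08% to 199% in these unnamed nuclei, so *Cidec* lay within their range.

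*Plin2* in the macrophage-like nuclei was above each single marker in both libraries. It was at 165 CPM (52 UMIs, 123 to 216) and 473 CPM (871 UMIs, 442 to 505), a log2 ratio of 1.52 (1.12 to 1.95). That was 106% (78.7 to 140) and 82.6% (76.7 to 88.8) of the adipocyte-like level. When each nucleus was thinned to 1000 UMIs the log2 ratio was 0.88 (0.35 to 1.46). The thinned share of macrophage-like nuclei with a *Plin2* UMI was 18% (22 of 122, 11.7 to 26.0) in the *Wtap* flox/flox library, the same as the T cell-like share. Those 61 T cell-like nuclei are few, and their class held the adipocyte markers at 62.8% of the adipocyte-like level, against 45.2% in the macrophage-like nuclei, so this share could not separate *Plin2* in macrophage-like nuclei from background. The share was 32.4% (245 of 756, 29.1 to 35.9) in the BKO-labelled library, above the 21.5% (17.4 to 26.1) of its T cell-like nuclei; without thinning the macrophage-like shares were 14.3% and 39.4%, at medians of 890 and 1310 UMIs, and the T cell-like shares 12.5% and 23.9%, at medians of 1030.5 and 978.5 UMIs.

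At a finer clustering there were 246 macrophage-like and 41 dendritic cell-like nuclei in the *Wtap* flox/flox library and 659 and 463 in the other. Together they were close in number to the 287 and 1123 nuclei of the macrophage-like cluster, though not an exact split of it. The ratio of 1.52 thus probably pooled a different mix in each library. *Plin2* was then at 163 and 519 CPM in macrophage-like nuclei. In nuclei called dendritic cell-like it was at 178 CPM (8 UMIs, 76.7 to 350.2) and 419 CPM (360 UMIs, 377 to 464). Both myeloid groups were thus higher in the BKO-labelled library.

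The fibroblast-like nuclei (271 and 482) had the highest *Plin2* level of the larger classes in the BKO-labelled library. *Plin2* was at 117 CPM (36 UMIs, 82.3 to 163) and 690.3 CPM (695 UMIs, 639.9 to 744), a log2 ratio of 2.55 (2.07 to 3.08). This was 75.5% (52.6 to 105) of the adipocyte-like level for *Wtap* flox/flox, against 120.5% (111 to 131) for the BKO-labelled nuclei. The adipocyte markers were at 38.7% and 33.5% in sum, *Plin4* at 27.6% and 27.1%, and *Cidec* at 37.0% and 26.2%. Single markers ranged from 21.1% to 183% there in the BKO-labelled library, so *Plin2* was not above every one of them. After thinning, 11.8% (6.58 to 19.0) and 41.3% (36.3 to 46.4) of the fibroblast-like nuclei had a *Plin2* UMI, against 11.8% and 56.4% without thinning at medians of 921 and 1608.5 UMIs. *Plin2* was thus above the T cell-like share in the BKO-labelled library and not in the *Wtap* flox/flox library.

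*Plin2* was higher in the BKO-labelled library in every class with at least 20 *Plin2* UMIs. The log2 ratio was 1.38 (1.13 to 1.63) in endothelial-like (1.58 and 0.95 in its clusters 4 and 5), 1.60 (1.07 to 2.15) in pericyte-like, 1.26 (0.56 to 2.06) in T cell-like and 1.15 (0.66 to 1.66) in the unnamed nuclei. In that library the order of the larger classes was fibroblast-like (690.3 CPM), adipocyte-like (573), macrophage-like (473), pericyte-like (342, 275 to 419), endothelial-like (338, 303 to 375), unnamed (291, 241 to 348) and T cell-like (282, 249.6 to 318). The 3 at the top had intervals that did not overlap, and the next 4 overlapped their neighbours. In the *Wtap* flox/flox library these classes lay between 113 and 165 CPM and most intervals overlapped. The 36 Schwann-like and 68 B cell-like nuclei held at most 12 *Plin2* UMIs per library.

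In the T cell-like nuclei *Plin2* was at 49.3% (43.5 to 55.7) of the adipocyte-like level in the BKO-labelled library, with the markers at 36.4% (35.4 to 37.4) in sum and at 28.0% to 55.2% one by one. In the pericyte-like nuclei it was at 59.7% (48.0 to 73.3) against 34.5% in sum, and in the endothelial-like nuclei at 59.0% (52.8 to 65.8) against 37.6%. Single markers ran from 24.0% to 131% in the pericyte-like and from 26.5% to 115% in the endothelial-like nuclei, so *Plin2* lay within their range in all 3 classes. The adipocyte-like level of *Plin2* itself was higher in this library, and the part of adipocyte RNA in the values of other classes was not tested.

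**Figure D4:**
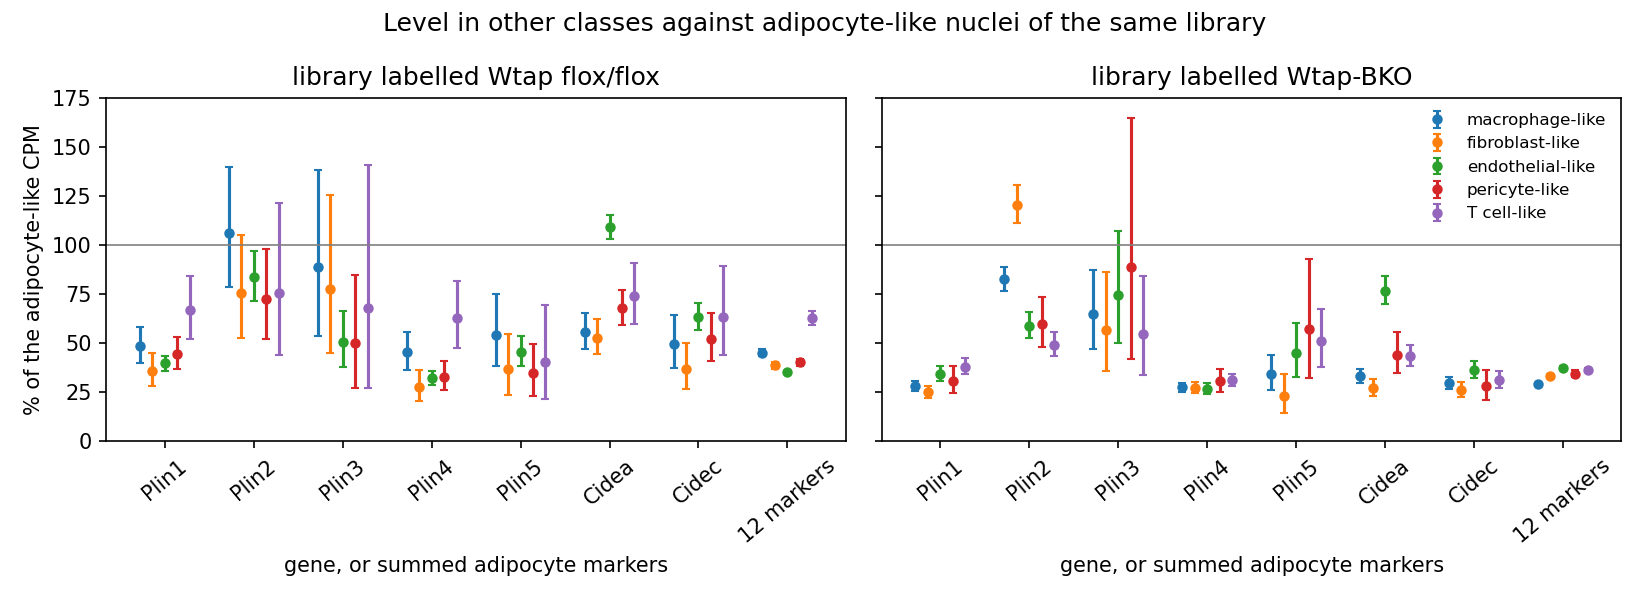
Level of 7 of the genes and of the summed 12 adipocyte markers in 5 other classes of nuclei, in percent of the adipocyte-like CPM of the same library, with 95% intervals; the left panel is the *Wtap* flox/flox library and the right panel the BKO-labelled library. In the right panel the markers lie at 29.3% to 37.6%. The intervals of *Plin2* in all 5 classes (49.3% to 120.5%), *Plin3* in all but the T cell-like nuclei (56.9% to 88.7%), *Cidea* in endothelial-like (76.8%) and T cell-like nuclei (43.4%) and *Plin5* in T cell-like nuclei (51.0%) lie above that of the markers of the same class.

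The level of *Cidea* was also set beside mitochondrial RNA. In the adipocyte-like nuclei, from under 5% to over 25% mitochondrial UMIs, *Cidea* was at 846, 949.6, 1090 and 748 CPM in the *Wtap* flox/flox library and at 486, 614, 692 and 759 CPM in the BKO-labelled library, so the bin over 25% was the lowest in the former and the highest in the latter. In the unnamed cluster, which was led by mitochondrially encoded genes (37.3% and 45.4% of its UMIs), *Cidea* was at 1525 CPM (570 UMIs) and 989.9 CPM (408 UMIs). This was 174% (159 to 189) and 157% (142 to 174) of the adipocyte-like level, with the markers at 25.7% and 32.9% in sum. Single markers ran from 5.08% to 199% and from 8.85% to 178% there, so *Cidea* lay within their range in both libraries. Of the other perilipin and CIDE genes with at least 20 UMIs over both libraries there, the highest were *Plin3* in the BKO-labelled library (86.9%, 48.1 to 145, 15 UMIs) and *Plin2* in the *Wtap* flox/flox library (84.3%). The endothelial-like class was held mostly by cluster 4 in the *Wtap* flox/flox library (862 of 1220 nuclei, median 14.8% mitochondrial UMIs) and by cluster 5 in the other (581 of 860 nuclei, median 5.15%). *Cidea* was at 1040.3 and 705 CPM in cluster 4 and at 514 and 230.2 CPM in cluster 5, and it was lower in the BKO-labelled library in both. The part of mitochondrial RNA in these levels was not tested.

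Between the libraries, *Cidea* had a ratio below 0 in every class with enough UMIs, and the interval held 0 in the B cell-like (5 and 16 UMIs) and Schwann-like nuclei (28 and 17 UMIs). The log2 ratio was -1.22 (-1.5 to -0.94) in macrophage-like, -1.25 (-1.60 to -0.90) in T cell-like and -1.44 (-1.77 to -1.11) in fibroblast-like nuclei. These ratios were lower than the -0.48 of the adipocyte-like nuclei, while the summed adipocyte markers were lower in these classes to different degrees. They were at 6645 and 4561 CPM in the macrophage-like, 9244 and 5677 CPM in the T cell-like and 5695 and 5215 CPM in the fibroblast-like nuclei. *Plin5* had a log2 ratio of -1.75 (-2.35 to -1.13) in macrophage-like and -1.78 (-2.65 to -0.91) in fibroblast-like nuclei, and -0.86 in unnamed nuclei. Its interval held 0 in T cell-like (-0.76, -1.66 to 0.24) and pericyte-like nuclei (-0.37, -1.35 to 0.55). *Plin3* had -1.22 (-2.0 to -0.40) in macrophage-like and -1.22 (-2.18 to -0.23) in fibroblast-like nuclei. The interval of *Plin3* held 0 in T cell-like (-1.08, -2.36 to 0.39) and endothelial-like nuclei (-0.21, -0.88 to 0.43). It also held 0 in pericyte-like (0.05, -1.28 to 1.33) and unnamed nuclei (0.31, -0.91 to 1.57). *Plin4* was at 1.14 (0.72 to 1.59) in fibroblast-like and 1.06 (0.64 to 1.5) in pericyte-like nuclei, close to the adipocyte-like ratio, at 0.80 in unnamed nuclei, at 0.44 (0.12 to 0.78) in macrophage-like and at 0.14 (-0.26 to 0.57) in T cell-like nuclei. *Cidec* had 0.50 (0.01 to 1.02) in fibroblast-like and 0.38 (0.0038 to 0.76) in unnamed nuclei. Its interval held 0 in macrophage-like (0.26, -0.14 to 0.68), T cell-like (-0.03, -0.55 to 0.54) and pericyte-like nuclei (0.11, -0.41 to 0.63). In the endothelial-like nuclei the pooled ratios were -0.99 for *Cidea*, -1.11 for *Plin5*, 0.90 for *Plin4* and 0.20 (-0.03 to 0.43) for *Cidec*, but they mix clusters 4 and 5, whose shares of the class differed between the libraries. The summed markers were at 5184 and 5861 CPM in the class, so they were not lower there. In cluster 4 *Cidea* had -0.56 (-0.73 to -0.40), an interval that held the adipocyte-like -0.48, and in cluster 5 it had -1.16 (-1.54 to -0.78). *Plin5* had -0.61 (-1.17 to -0.07) and -1.98 (-3.17 to -0.89) in clusters 4 and 5, and *Plin4* had 1.22 and 0.93, both above its pooled value. *Cidec* was 1.52 times higher in cluster 4 (0.60, 0.34 to 0.86) and had -0.32 (-0.85 to 0.22) in cluster 5. In the macrophage-like nuclei 25.3% of 10028 genes were at least 1.5-fold higher and 16.7% lower, and in the fibroblast-like nuclei 23.2% of 8381 genes were higher and 13.8% lower.

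**Figure D5:**
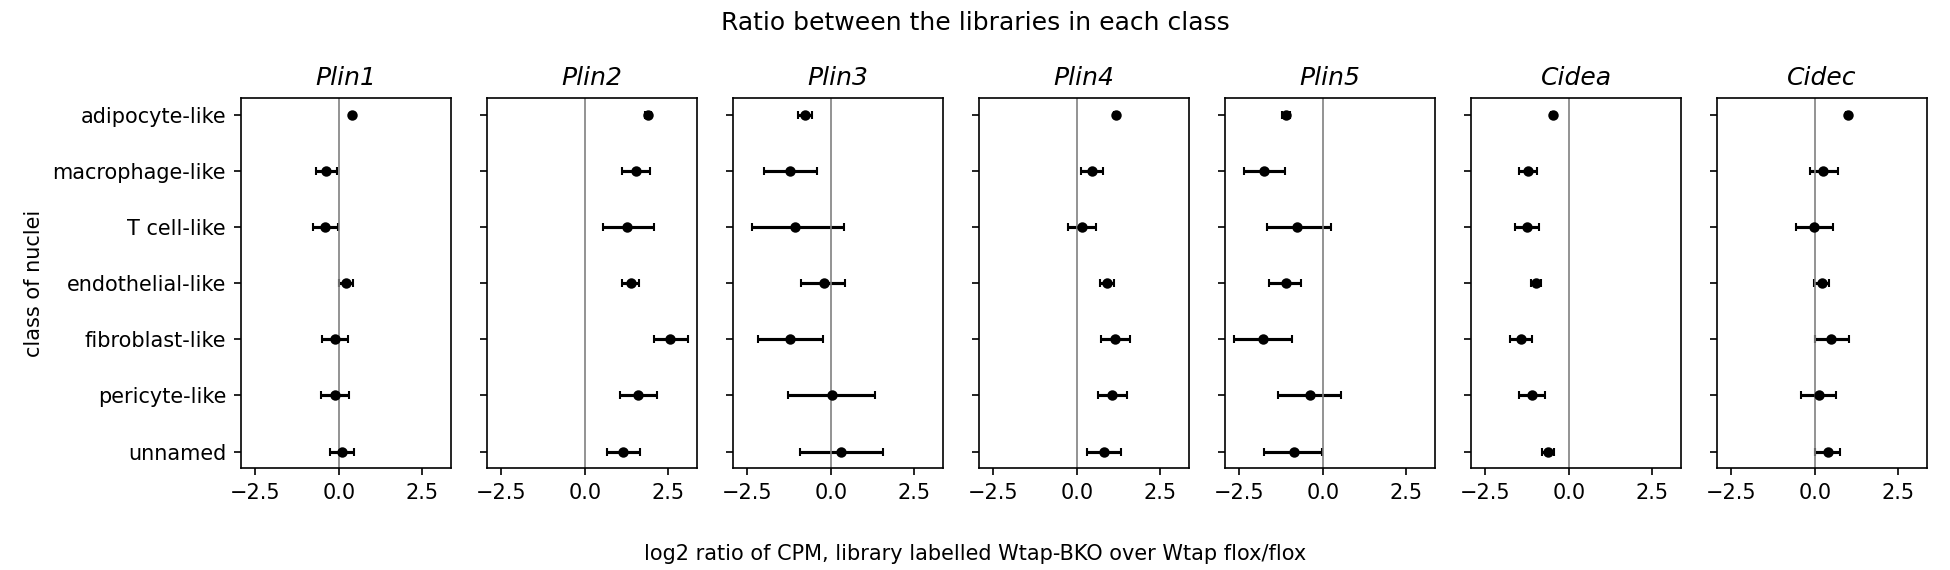
Log2 ratio of CPM in the BKO-labelled library over *Wtap* flox/flox (x axis) for 7 of the genes in 7 classes of nuclei, with exact conditional 95% intervals and a grey line at 0. *Plin2* lies to the right of 0 in all 7 classes and *Cidea* to the left in all 7, while *Plin1* is at 0.41 in adipocyte-like and at -0.37 in macrophage-like nuclei.

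Other genes of the lipid droplet were compared in the adipocyte-like nuclei. Of 19 genes of droplet formation 17 had enough UMIs, 2 were at least 1.5-fold higher in the BKO-labelled library, 2 were lower and 13 were neither, among 25.2% higher and 12.2% lower of all genes, with a median log2 ratio of -0.0033 against 0.07 over all genes. The lower count was thus near the share over all genes and the higher one under it. The higher ones were *Cavin1*, a coat protein of caveolae (60.9 and 184 CPM, 3.03 times), and *Tmem159*, a partner of seipin at sites of droplet assembly (10.9 and 19.2 CPM, 1.75 times). *Fitm2*, an endoplasmic reticulum protein needed for droplet budding, was at 84.0 and 99.5 CPM. The lower ones were *Vps13c*, a lipid transfer protein (157 and 102 CPM, 1.53 times), and *Clstn3* (247 and 164 CPM, 1.51 times), an adipocyte form of which acts at contacts of the endoplasmic reticulum with droplets. Both lower calls ended without mitochondrial UMIs in the denominator, 1 of them ended with equal cluster weights, and 1 of the 2 higher calls ended in nuclei thinned to 1000 UMIs. *Acsl3*, an acyl-CoA synthetase of nascent droplets, was at 37.2 and 28.6 CPM. *Bscl2*, which encodes seipin, was at 132 and 131 CPM. *Dgat2*, which makes triglycerides, was at 1015 and 829 CPM.

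Of 7 genes of the droplet lipases and their regulators, 2 were higher, none was lower and 5 were neither, among the same 25.2% and 12.2%, with a median log2 ratio of 0.30. The 2 of 7 higher ones were near the share over all genes. *G0s2*, an inhibitor of adipose triglyceride lipase, was at 245 and 448 CPM, 1.83 times higher. *Lipe*, which encodes hormone-sensitive lipase, was at 1783 and 3122 CPM, 1.75 times higher. *Pnpla3*, a lipid droplet protein related to adipose triglyceride lipase, was at 97.2 and 124 CPM. *Pnpla2*, which encodes adipose triglyceride lipase, was at 733 and 642 CPM, *Abhd5*, its coactivator held by perilipin 1, at 87.6 and 97.0 CPM, and *Hilpda*, another inhibitor, had 23 UMIs in each library.

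The genes most like each member were named by the correlation of log2(CPM + 1) over the sums of UMIs per cluster and library (27 sums of at least 20000 UMIs, 10325 genes). These points share libraries and depth. They run over adipocyte-like and other clusters, so r also holds the difference between these. *Adrb3*, named below, is among the 12 adipocyte markers used to name clusters. *Plin4* was most like *Adrb3* (r = 0.95), *Slc1a5* and *Slc1a3* (both 0.92), and *Plin1* was most like *Ankef1*, *Lipe* and *Acacb* (0.92 to 0.93). *Cidea* was most like *Cyc1*, *Atp5d* and *Acaa2* (0.90 to 0.92), and *Plin2* was most like *Cenpu*, *Nr4a1* and *Zfp703* (0.85 to 0.90). *Plin3* was most like *Pank1*, *Acadm* and *Gmpr* (0.78 to 0.80). *Plin5* (*Letmd1*, *Ppp1r3b* and *Entpd5*, 0.95 to 0.96) and *Cidec* (*Mrap*, *Akt2* and *Aacs*, 0.95 to 0.97) each had 1 sum with 0 UMIs, that of the 15 Schwann-like BKO-labelled nuclei. With sums of at least 100000 UMIs (24 sums, chosen after the data were seen), most of the named genes changed. *Cidec* was most like *Mmd*, *Pcx* and *Mrap* (0.93 to 0.94). *Plin3* kept none of its genes and was most like *Gm48397*, *Rmnd1* and *Rbpms2* (0.80 to 0.82). *Plin4* kept only *Adrb3*, which stayed closest to it (0.96), and *Plin2* kept only *Nr4a1*, which was second (0.90). *Plin1* kept only *Lipe* (0.94), and *Cidea* kept only *Cyc1* (0.95). *Cideb* had too few UMIs for this. Among the 7 genes compared, *Plin4* and *Plin1* had r = 0.88 over both the 27 and the 24 sums. Other pairs moved with the sums left out: from 27 to 24 sums, r went from 0.53 to 0.87 for *Plin4* and *Cidec*, from 0.77 to 0.19 for *Plin5* and *Cidec*, from 0.38 to 0.77 for *Plin5* and *Plin3*, from 0.30 to 0.71 for *Plin5* and *Cidea* and from 0.43 to 0.55 for *Plin5* and *Plin1*. It was 0.24 and 0.17 for *Plin4* and *Plin5* and -0.12 and 0.0031 for *Cidea* and *Cidec*.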

How the data were processed

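The authors deposited raw UMI counts for every gene in every nucleus, made with Cell Ranger 5.0.0 (named in the file headers), and the submitters' processing notes list the build mm10. The annotation and the use of intronic reads were not given in the sources used here. The lowest total was 500 UMIs, the minimum of the study, and no nucleus was removed. The libraries shared 20 cell barcodes.

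Nuclei were clustered with Seurat 5.3.0 (R 4.3.3) after the methods of the study: canonical correlation integration, 20 components and a resolution of 0.5. The 2000 variable features were a choice made here, with the 8 genes and both droplet lists (34 genes in all) left out of them. The study also names its top 8 components for later clustering, and 8 components were among the alternatives tried. Clusters were named "X-like" from markers of 16 classes. For every class but adipocyte, 3 or more markers had to reach 10 UMIs and 2 times the CPM (counts per 1000000 UMIs) of the remaining nuclei. An adipocyte-like cluster needed at least 50% of 12 markers at 1.5 times the CPM of the named clusters. These limits were chosen with the data in view, and 1 cluster stayed unnamed. In the adipocyte-like cluster 0, 1 nucleus of the BKO-labelled library held 212 of 225 UMIs of the muscle gene *Ttn*. The members and lists were chosen with earlier results of these data known.

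UMIs were summed per library and class and given as CPM with exact Poisson, shares with Clopper-Pearson, and log2 ratios with exact conditional 95% intervals (Python 3.11.15, scipy 1.17.1). A 0 was set to 3 UMIs to bound a ratio. The ratios and their intervals were tested on simulated counts with known fold changes. Named were all 8 genes, the 3 highest and 3 lowest genes of each list, the 3 genes most like each member with 200 or more UMIs, and *Wtap*; *Bscl2* and *Dgat2* and the overlapping genes were named after their values were seen. Scrublet (scanpy 1.11.5, expected share 7%) called 0 doublets, so its calls were not used. 11 alternatives were tried. The genes most like *Plin5* over the larger sums are not reported here.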

Additional observations from a re-analysis of the deposited data

Results flagged for a closer look

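*Plin1* had ratios of opposite sign in different classes. In the adipocyte-like nuclei its log2 ratio was 0.41, but it was -0.37 (-0.67 to -0.06) in the macrophage-like nuclei (111 and 500 UMIs) and -0.40 (-0.78 to -0.01) in the T cell-like nuclei (70 and 352 UMIs). Each interval lay on its own side of 0. The difference between the classes was not tested, since each genotype had 1 library. The signs were kept without mitochondrial UMIs in the denominator (-0.32 and -0.33) and relative to the median gene of the class (-0.46 and -0.55). *Plin1* went from 48.4% to 28.2% of the adipocyte-like level in the macrophage-like nuclei, where the 12 adipocyte markers went from 45.2% to 29.3%, and from 66.7% to 38.0% in the T cell-like nuclei, where the markers went from 62.8% to 36.4%. Their part in the result was not tested.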

How the results depend on the processing

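No paired analysis was possible because each genotype had 1 library. Over the alternatives, 0 of 80 member ratios in the adipocyte-like nuclei changed sign, 60 stayed within the counting interval and 20 left it. The number of members at least 1.5-fold higher was 4 throughout and the number lower was 2 to 3, the third being *Cidea* at -0.80 without nuclei over 5% mitochondrial UMIs. That setting gave *Cidea* shares of 69.3% and 32.6% of the *Cidea* and *Cidec* UMIs and 1 lower lipase gene. Equal cluster weights gave 69.1% and 50.1% and 1 lower formation gene. Thinning to 1000 UMIs gave a *Plin2* log2 ratio of 0.88 in macrophage-like nuclei. Thinning and a minimum of 1000 UMIs each gave 1 higher formation gene. Mitochondrial UMIs left out of the denominator gave 0 lower formation genes and moved the median of all genes by 0.11. The cause of these moves was not tested. Of 35 ratios of members and classes whose interval excluded 0, 34 kept their sign under both other scalings, and *Plin1* in endothelial-like nuclei went from 0.21 to -0.15 relative to the median gene. Under 20 UMIs, as for *Cideb* outside adipocyte-like nuclei, no call was made.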
